A study of Mus musculus with 6 samples.

Results

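Messenger RNA of 10 C-type lectin receptor genes of the Dectin and DCIR group was followed in splenic monocytes of water-gavaged (Con) and vancomycin-gavaged (Van) mice. The members were taken by gene symbol (Clec4d, Clec4e, Clec4n, Clec4b1, Clec7a, Clec5a, Clec4a1, Clec4a3, Clec4a2 and Clec12a), with 1 identifier used for each, 10 of the 46072 in the count table. All 10 were among the 16138 genes that passed the filter on low counts. All mice were female C57BL/6 of 8 to 10 weeks. Van mice (n = 3) received 1 mg of vancomycin by mouth at each of 2 gavages a day for 6 days, and Con mice (n = 3) received water on the same schedule. Both groups were then left without antibiotic for 6 to 8 days by the labels and the study's methods, and for 8 days where the study describes the sequenced mice. The study asked whether lowering gut Bacteroidota, and with them a family of circulating bacterial lipids, alters innate responses of splenic monocytes, and the RNA here is from cells that were not stimulated in culture. Monocytes were enriched with magnetic beads by negative selection, so each library is a bulk sample that can hold other cells. Whether spleens were combined for a library, or whether these mice received a vehicle injection, is not given in the sources used here. P-values measure the spread between these 6 samples.

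C-type lectin receptors of myeloid cells bind sugars and lipids of fungi, mycobacteria and damaged host cells. Activating members signal through the kinase Syk and the adaptor Card9, either from a tyrosine motif in their own tail (Dectin-1) or through a partner with an activation motif, the Fc receptor gamma chain encoded by Fcer1g or DAP12 encoded by Tyrobp. Inhibitory members carry an immunoreceptor tyrosine-based inhibitory motif (ITIM) that recruits phosphatases such as SHP-1, the product of Ptpn6. Most of these genes lie in a pair of clusters on mouse chromosome 6, named here after Dectin-2 and Dectin-1.

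The first 90 coding bases of 5 members, which encode the start of the cytoplasmic tail, show the motifs that some of them carry. In capitals are the codons of an ITIM (isoleucine, valine, leucine or serine, any residue, tyrosine, any pair of residues, then leucine, valine or isoleucine) or, for Clec7a, of a tyrosine followed at the third place by leucine. The sequences are from GENCODE M21 transcripts of GRCm38.
Clec4a2: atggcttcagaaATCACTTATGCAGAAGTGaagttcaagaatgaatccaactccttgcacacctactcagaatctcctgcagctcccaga
Clec12a: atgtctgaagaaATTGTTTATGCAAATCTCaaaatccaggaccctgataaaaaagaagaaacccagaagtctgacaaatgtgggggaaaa
Clec7a: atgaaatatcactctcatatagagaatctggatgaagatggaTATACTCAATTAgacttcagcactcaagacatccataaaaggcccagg
Clec4a1: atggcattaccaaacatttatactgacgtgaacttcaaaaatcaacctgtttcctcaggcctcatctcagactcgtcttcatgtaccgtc
Clec4a3: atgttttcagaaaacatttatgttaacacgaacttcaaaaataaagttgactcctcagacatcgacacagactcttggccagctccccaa
The ITIM began at codon 5 in both Clec4a2 and Clec12a, and the Clec7a motif at codon 15. In the 30 codons searched, neither pattern was found in Clec4a1, Clec4a3 or the 5 other activating members. Clec4a2 and Clec12a are called inhibitory below, Clec4a1 and Clec4a3 DCIR-type, and Clec4d, Clec4e, Clec4n, Clec4b1, Clec7a and Clec5a activating. These classes follow general knowledge of the receptors, since the motif search does not separate DCIR-type from most activating members.

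The libraries held between 43383919 and 61834407 estimated counts, which are not numbers of fragments, and of which the 10 members took between 0.181% and 0.208%. Of 13 neutrophil markers, Ly6g was listed at 0 in all 6 libraries and S100a8 lay between 0.72 and 2.77 CPM, which are counts scaled to the library's total after TMM adjustment. Csf3r, a receptor that monocytes also express, lay between 312 and 387 CPM and Mmp8 between 30.4 and 89.5 CPM, while each of the other 11 was at 3.56 CPM or less in every library. The median log2 fold change over all genes tested was 0.00.

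Clec4d rose most clearly, Clec4e and Clec4n rose with it, and Clec12a fell. By the edgeR quasi-likelihood test with Benjamini-Hochberg adjustment over all genes tested, 3 of the 10 members were called higher in Van at an adjusted p of at most 0.05, where 1.08% of all genes tested were called higher. A single member was called lower, where 0.917% of all genes were. DESeq2, the alternative test, called 5 members higher (3.73% of its genes) and 2 lower (3.6%). The log2 fold change was positive for 8 members and negative for 2. The groups did not overlap in CPM for 6 members that were higher in Van (11.5% of all genes tested) and for 2 that were lower (11%). For each of those 8, the exact two-sided permutation test gave p = 0.1, the smallest that 3 against 3 allows. The receptors were chosen with earlier results of these data known, that of Clec4d among them, so their direction here is not independent evidence.

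Clec4d (ENSMUSG00000030144, chr6:123262111-123275265, + strand) encodes MCL, also called Dectin-3, which pairs with Mincle and with Fc receptor gamma chain. It was at 11.7, 12.2 and 11.2 CPM in Con and at 25.5, 27.8 and 28.0 CPM in Van. All 3 Van mice lay above all 3 Con mice, and the gap between the groups was far wider than the spread within either. The level was 2.31-fold higher in Van, a log2 fold change of 1.21 (SE 0.08, 95% CI 1.03 to 1.39). With an adjusted p of 9.2e-04 by the edgeR quasi-likelihood test with Benjamini-Hochberg adjustment, the gene ranked at place 3 of all genes tested. Within a library the level was low, at 7.33 ± 0.244 FPKM (SD, n = 3) in Con and 17.1 ± 1.02 in Van.

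Clec4e (ENSMUSG00000030142, chr6:123281789-123289870, - strand) encodes Mincle, the receptor for mycobacterial cord factor. The Con mice had 145, 143 and 174 CPM and the Van mice 282, 225 and 212 CPM. Van replicate 1 was the highest, and the lowest Van mouse was above the highest Con mouse. The log2 fold change was 0.64 (SE 0.12, 95% CI 0.37 to 0.91, 1.56-fold), with an adjusted p of 0.0379 by edgeR with Benjamini-Hochberg adjustment.

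Clec4n (ENSMUSG00000023349, chr6:123229843-123247021, + strand) encodes Dectin-2, which binds mannans of yeasts and signals through Fc receptor gamma chain. It stood at 71.4, 80.9 and 87.8 CPM in Con and at 101, 122 and 112 CPM in Van, without overlap. The rise was 1.40-fold (log2 0.48, SE 0.10, 95% CI 0.26 to 0.70), with an adjusted p of 0.0446 by edgeR with Benjamini-Hochberg adjustment. The calls of Clec4e and Clec4n rested on all 6 mice: leaving out any single mouse moved their adjusted p to between 0.0615 and 0.124 and between 0.0573 and 0.168 by edgeR with Benjamini-Hochberg adjustment, whereas Clec4d was called in all 6 such fits.

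**Figure D1:**
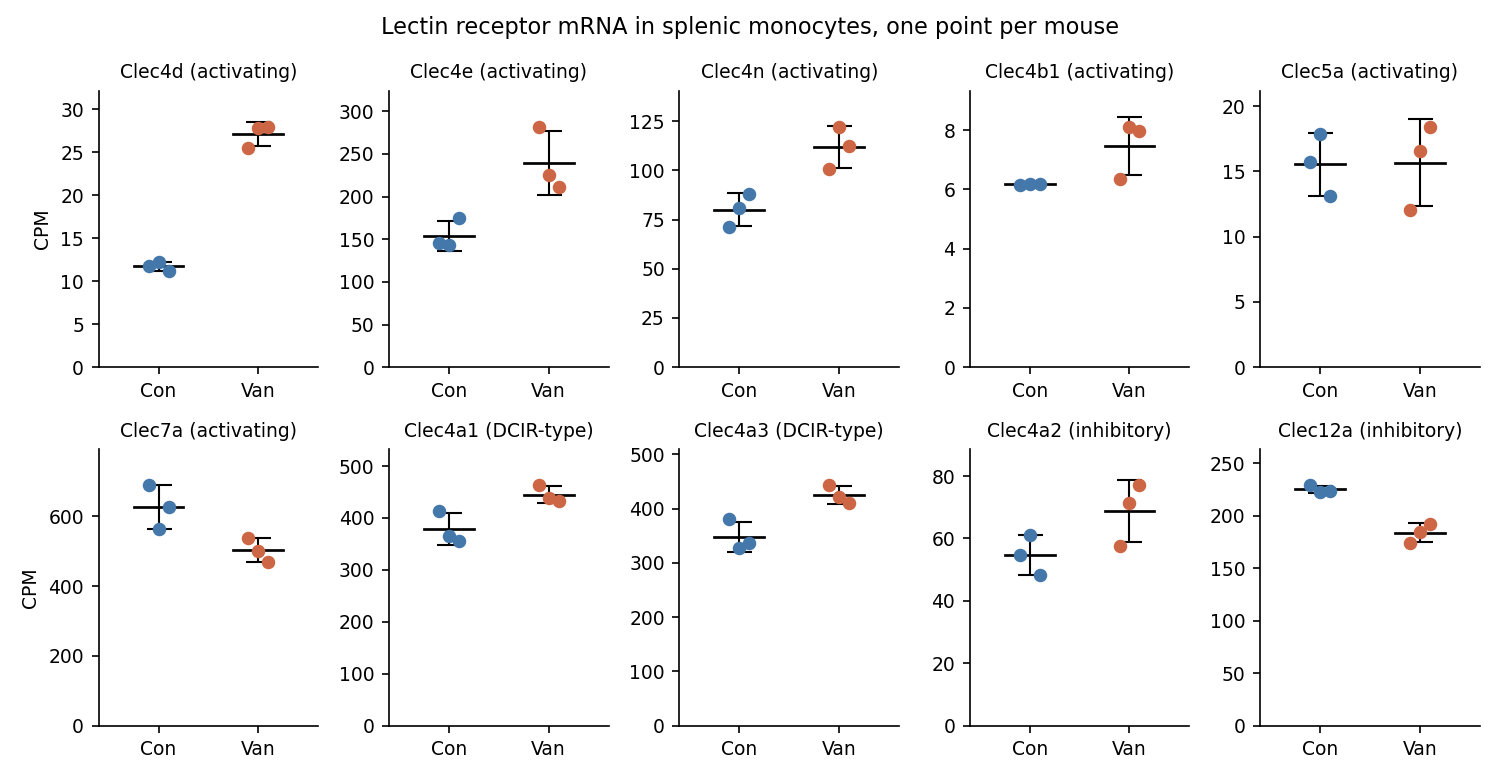
CPM of the 10 lectin receptors in Con and Van mice, 1 point per mouse, with a bar at the mean and error bars of 1 SD, each panel starting at 0. Clec4d rises from 11.2 to 12.2 CPM in Con to 25.5 to 28.0 CPM in Van, while Clec7a and Clec12a lie lower in Van.

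The 250 bases before the RefSeq start of Clec4d and of Clec4e (GRCm38.p6) are shown because these neighbouring genes, whose ends lie 6.5 kb apart, rose together. Capitals mark matches, on either strand, to C/EBP (TTNCNNAA) or to the PU.1/ETS core GGAAGT. In Clec4d one of each overlap within a single capital run.
Clec4d (chr6:123261857-123262106, + strand): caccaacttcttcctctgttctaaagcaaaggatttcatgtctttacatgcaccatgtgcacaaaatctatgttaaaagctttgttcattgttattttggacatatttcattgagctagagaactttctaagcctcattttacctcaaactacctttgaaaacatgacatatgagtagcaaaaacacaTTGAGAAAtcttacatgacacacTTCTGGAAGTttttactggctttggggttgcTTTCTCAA
Clec4e (chr6:123289872-123290121, - strand): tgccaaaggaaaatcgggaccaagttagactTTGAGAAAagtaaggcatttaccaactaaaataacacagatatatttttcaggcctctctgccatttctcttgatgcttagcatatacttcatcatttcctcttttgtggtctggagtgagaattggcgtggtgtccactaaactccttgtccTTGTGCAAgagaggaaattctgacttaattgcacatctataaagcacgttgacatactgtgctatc
Clec4d held 3 matches to TTNCNNAA and 1 to GGAAGT, and Clec4e held 2 and 0. Of 32851 RefSeq promoter windows of that length, 36.8% held TTNCNNAA and 19.7% held GGAAGT at least once. Of the other members with a promoter in the table, Clec4a2 and Clec12a also held 2 matches to TTNCNNAA, Clec5a held 1, and Clec7a, Clec4a1, Clec4a3 and Clec4b1 held 0. Clec4a2 held 2 matches to GGAAGT, more than Clec4d, and the other 6 of these held 0. The AP-1 string TGANTCA was searched as well and lay in 6.75% of the windows. Clec12a held 1 match to it, and Clec4d, Clec4e and the other members with a promoter held 0. A match is a string of letters in a window.

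None of the other 3 activating members was called by edgeR. Clec4b1 (ENSMUSG00000030147, chr6:123049962-123071555, + strand) encodes DCAR, a partner of Fc receptor gamma chain that binds mycobacterial glycolipids. Its levels were 6.15, 6.17 and 6.17 CPM in Con and 6.34, 8.12 and 7.96 CPM in Van, so that Van replicate 1 stood just above the Con mice. The log2 fold change of 0.28 (SE 0.13, 95% CI -0.02 to 0.58) had an adjusted p of 0.343 by edgeR with Benjamini-Hochberg adjustment. A stretch of 436 bases is shared with Clec4a2 at 96.3% identity, so reads of these genes could be assigned to either.

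Clec7a (ENSMUSG00000079293, chr6:129461591-129472779, - strand) encodes Dectin-1, the receptor for fungal beta-glucan. The Con mice had 689, 564 and 627 CPM and the Van mice 537, 502 and 468 CPM. All Van mice lay below all Con mice, but the highest Van mouse was close to the lowest Con mouse. The log2 fold change was -0.32 (SE 0.08, 95% CI -0.51 to -0.13). Its adjusted p was 0.0991 by edgeR's test with Benjamini-Hochberg adjustment, short of the threshold, while DESeq2 called it with an adjusted p of 0.00781. Clec7a is listed under 2 identifiers with identical counts, and the one used here carries the FPKM.

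Clec5a (ENSMUSG00000029915, chr6:40574894-40585821, - strand) encodes MDL-1, which signals through DAP12 and lies apart from both clusters. Its levels in Con were 15.7, 17.9 and 13.1 CPM and in Van 12.0, 16.6 and 18.4 CPM. The groups overlapped throughout, and the log2 fold change was 0.01 (SE 0.17, 95% CI -0.38 to 0.40).

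The DCIR-type members had a similar, small difference. Clec4a1 (ENSMUSG00000049037, chr6:122921848-122934619, + strand) encodes DCIR4, and its 3 Con mice had 413, 364 and 356 CPM against 463, 438 and 433 CPM in Van. Clec4a3 (ENSMUSG00000043832, chr6:122952515-122969875, + strand) encodes DCIR3, at 380, 328 and 337 CPM in Con and 443, 420 and 411 CPM in Van. In both genes every Van mouse lay above every Con mouse. Their log2 fold changes were 0.23 (SE 0.07, 95% CI 0.08 to 0.39) and 0.29 (SE 0.07, 95% CI 0.13 to 0.44). Neither was called by edgeR with Benjamini-Hochberg adjustment (adjusted p = 0.133 and 0.0766), and DESeq2 called both.

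The inhibitory members differed in sign. Clec4a2 (ENSMUSG00000030148, chr6:123106428-123143999, + strand) encodes DCIR1, an ITIM-bearing receptor. It was at 54.6, 61.2 and 48.3 CPM in Con and at 57.7, 71.2 and 77.1 CPM in Van, and Van replicate 1 lay within the Con range. The log2 fold change was 0.33 (SE 0.12, 95% CI 0.05 to 0.60), with an adjusted p of 0.223 by edgeR with Benjamini-Hochberg adjustment and an exact permutation p of 0.2. It shares 301 bases with Clec4a4 at 95.3% identity besides the stretch shared with Clec4b1.

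Clec12a (ENSMUSG00000053063, chr6:129342691-129365303, + strand) encodes MICL, an ITIM-bearing receptor for uric acid crystals. Con mice had 229, 223 and 223 CPM and Van mice 174, 184 and 192 CPM. The groups did not overlap and the Con mice were very close to each other. The level was lower in Van by a log2 fold change of -0.29 (SE 0.06, 95% CI -0.42 to -0.16), with an adjusted p of 0.0411 by edgeR with Benjamini-Hochberg adjustment. Without any single mouse its adjusted p ranged from 0.0716 to 0.165 by edgeR with Benjamini-Hochberg adjustment.

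**Figure D2:**
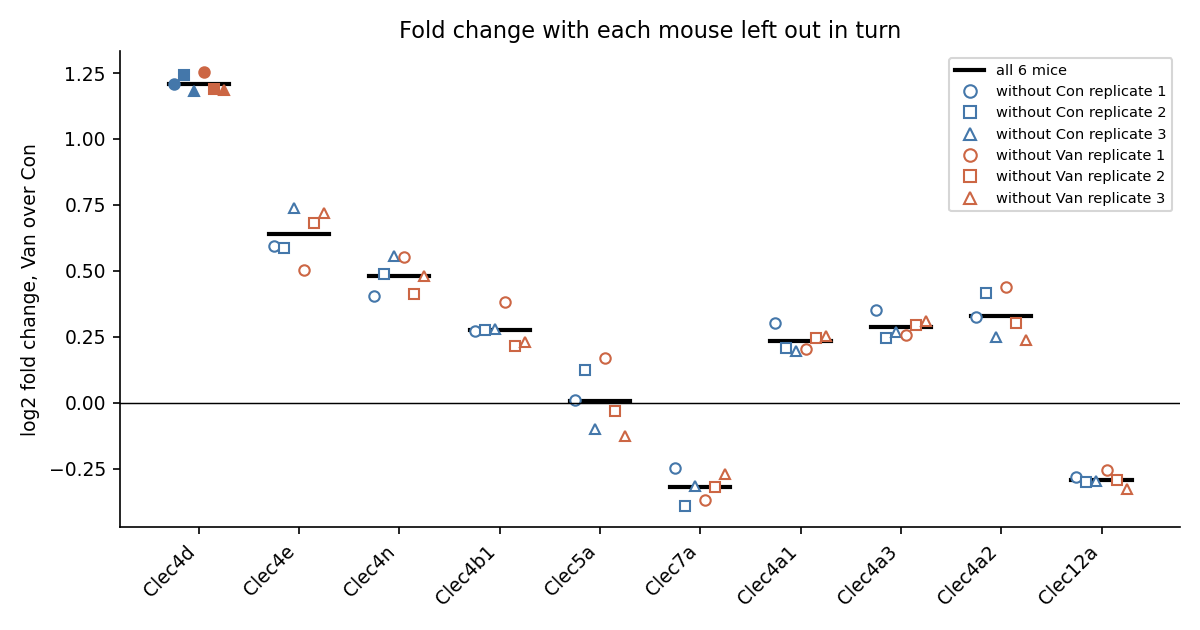
Log2 fold change (Van over Con, edgeR) of each lectin receptor with all 6 mice (black line) and with each mouse left out in turn; filled symbols mark an adjusted p of at most 0.05. Clec4d is filled in all 6 fits, with values from 1.18 to 1.25, and no other member is filled in any.

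FPKM, which is scaled to transcript length, allows the members to be ranked. In Con, Clec7a was the first at 246 ± 24.8 FPKM (SD, n = 3), followed by Clec4a3 at 224 ± 16.7 and Clec4a1 at 203 ± 14.5. The ranges of Clec7a and Clec4a3 overlapped, as did those of Clec4a3 and Clec4a1, although within each of the 3 Con mice Clec7a was above Clec4a3 and Clec4a3 above Clec4a1. Clec12a (85.9 ± 1.39), Clec4n (55.1 ± 6.59), Clec4e (41.9 ± 4.24) and Clec4a2 (26.9 ± 2.70) followed without overlap, and Clec4d (7.33 ± 0.244), Clec4b1 (7.07 ± 0.0602) and Clec5a (5.22 ± 1.25) were the lowest, with the ranges of Clec4d and Clec4b1 overlapping.

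In Van the order changed at the top. Clec4a3 (275 ± 10.1 FPKM) and Clec4a1 (240 ± 7.90) lay above Clec7a (197 ± 14.2), with no overlap between these neighbours. Clec4n (76.8 ± 9.42), Clec12a (69.6 ± 3.59) and Clec4e (67.2 ± 8.75) had overlapping ranges. Within each of the 3 Van mice Clec4n was above Clec12a, whereas Clec4e was above both in Van replicate 1 and below both in the other two. Clec4a2 was at 35.2 ± 1.80, Clec4d at 17.1 ± 1.02, Clec4b1 at 8.76 ± 1.33 and Clec5a at 4.74 ± 1.49 FPKM, each without overlap with the next.

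**Figure D3:**
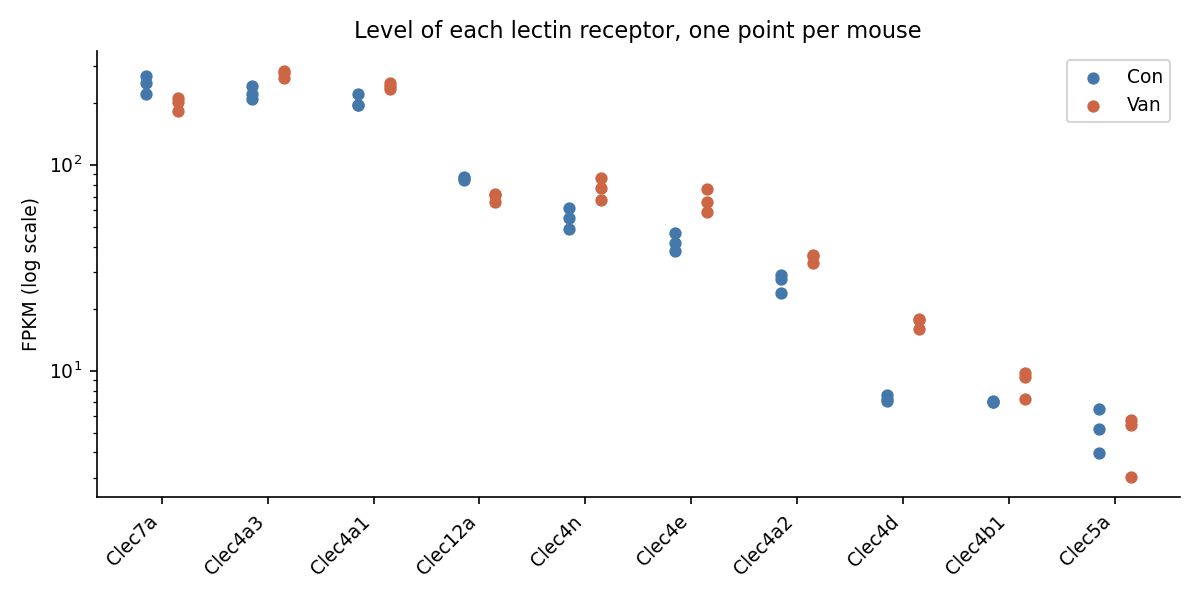
FPKM of each lectin receptor on a log axis, 1 point per mouse, in the order of the Con means. Clec7a has the highest Con mean (246 FPKM), while in Van Clec4a3 (275 FPKM) and Clec4a1 (240 FPKM) lie above it (197 FPKM).

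By edgeR, 3 of 6 activating members were called higher and 0 lower, 0 of 2 DCIR-type members were called, and of the 2 inhibitory members 0 were called higher and 1 lower, where 1.08% of all genes tested were called higher and 0.917% lower. The difference between the classes was not tested. The median log2 fold change was 0.38 over the activating, 0.26 over the DCIR-type and 0.02 over the inhibitory members, beside 0.00 over all genes tested. The inhibitory median lies between values of opposite sign (0.33 and -0.29) and turned negative without Con replicate 3 (-0.02) or Van replicate 3 (-0.05). Activating and inhibitory receptors were also compared as summed FPKM. The 6 activating members together held 380, 333 and 375 FPKM in Con and 380, 386 and 351 FPKM in Van, and the groups overlapped. The 2 inhibitory members held 110, 113 and 115 FPKM in Con and 98.7, 107 and 109 in Van. Activating over inhibitory FPKM was 3.22 ± 0.257 (SD, n = 3) in Con and 3.56 ± 0.313 in Van, again with overlapping mice. If the DCIR-type members are counted with the inhibitory ones, the ratio was lower in Van, at 0.599 ± 0.0194 against 0.672 ± 0.0323, so the direction depends on where they are placed.

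Within the activating members the make-up differed. Clec7a supplied 67.8% ± 2.68 of their FPKM in Con and 53.0% ± 1.87 in Van. The other 5 summed to 111, 113 and 126 FPKM in Con and to 170, 185 and 169 in Van, without overlap. Clec7a over Clec4d was 37.1, 29.0 and 34.9 in Con against 13.1, 11.3 and 10.4 in Van, so all Van mice lay below all Con mice. Between the inhibitory members, Clec4a2 over Clec12a by FPKM was 0.276, 0.344 and 0.321 in Con and 0.506, 0.504 and 0.507 in Van. The scales differ for Clec4a2, whose FPKM was 23.9, 29.0 and 27.9 in Con and 33.2, 35.9 and 36.6 in Van, without overlap. By CPM its groups overlapped.

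The sign of the difference followed the chromosomal cluster more closely than the receptor class, a pattern that was seen in the values and is given as a description. All 7 members of the Dectin-2 cluster (chr6:122921848-123289870, GRCm38), activating, DCIR-type and inhibitory, had positive log2 fold changes, from 0.23 to 1.21 with a median of 0.33. Both members of the Dectin-1 cluster (chr6:129342691-129472779), 6.05 Mb away, had negative ones, and they comprise an activating and an inhibitory receptor. Summed FPKM of the Dectin-2 cluster members over those of the Dectin-1 cluster was 1.66, 1.77 and 1.69 in Con and 2.66, 2.70 and 2.74 in Van. The 3 called genes of the Dectin-2 cluster, Clec4n, Clec4d and Clec4e, are its last members in chromosomal order.

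Lectin genes between the members did not all share these signs. Clec4a4, encoding the dendritic cell receptor DCIR2, lies inside the Dectin-2 cluster and had a log2 fold change of -0.16, with an adjusted p of 0.65 by edgeR with Benjamini-Hochberg adjustment. Clec4b2, in the same cluster, and Clec12b, in the other, had too few counts to be tested. Inside the Dectin-1 cluster, Clec9a, a receptor of cross-presenting dendritic cells, fell by 1.12 on the log2 scale with an adjusted p of 0.0131 by edgeR with Benjamini-Hochberg adjustment. Clec1b, the platelet receptor CLEC-2, had -0.16 and Clec1a had -1.50, neither called.

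Among all genes tested within 200 kb that were not members, a window chosen after the values were seen, 6 lay around the Dectin-2 cluster, of which 2 had positive and 4 negative log2 fold changes and 0 were called. Around the Dectin-1 cluster there were 12, of which 2 had positive and 10 negative values. Of these 12, 2 were called lower, Clec9a and Klrk1, where 0.917% of all genes tested were. Klrk1, encoding the natural killer receptor NKG2D, had -0.90 with an adjusted p of 0.0495 by edgeR with Benjamini-Hochberg adjustment.

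**Figure D4:**
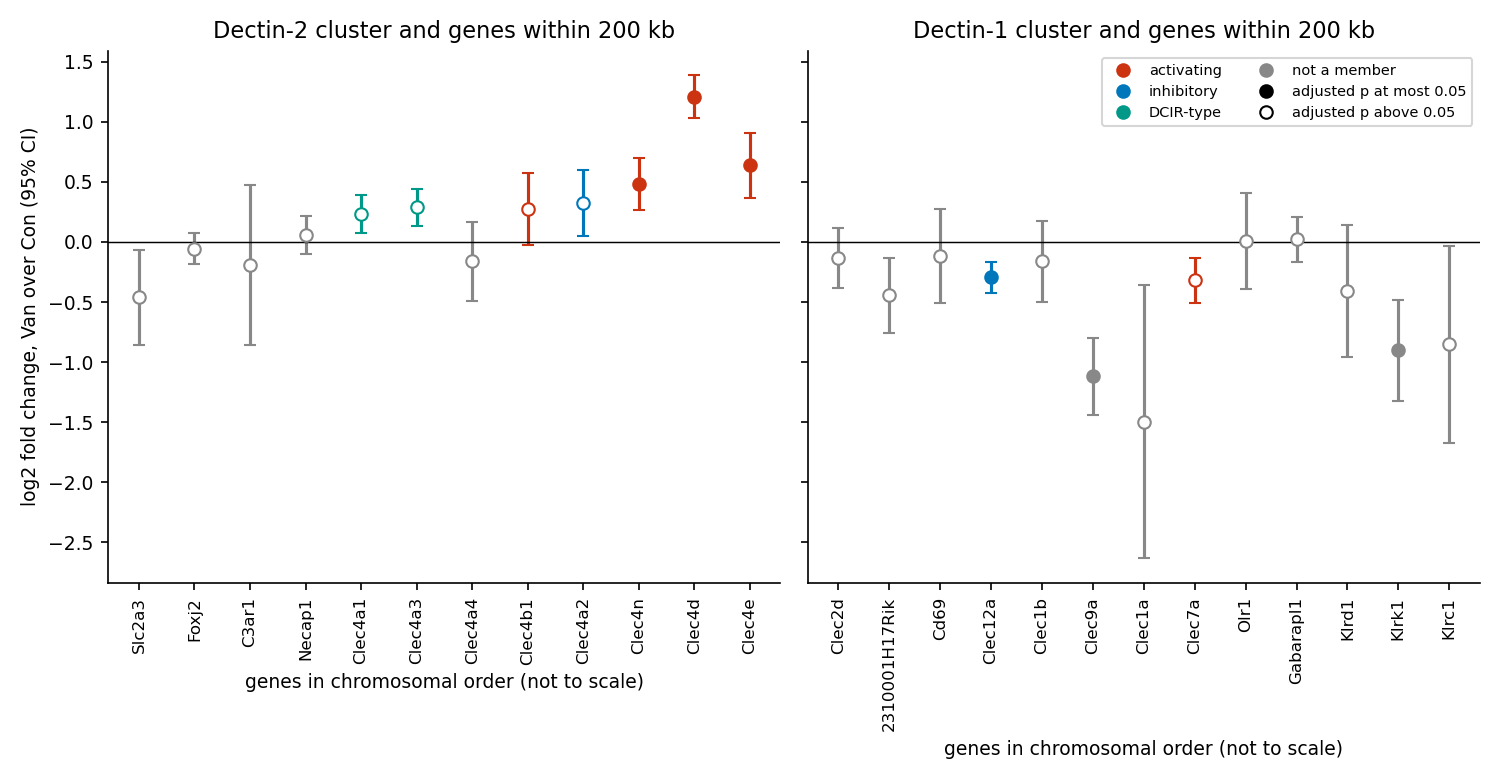
Log2 fold change (Van over Con) with 95% CI of the genes in and within 200 kb of each chromosome 6 cluster, in chromosomal order, for genes with a mean of at least 0.5 CPM; filled points have an adjusted p of at most 0.05. All 7 coloured members on the left lie above 0 and both on the right lie below it.

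Among the signalling partners of these receptors, Syk and Pik3r1 rose. Of 3 adaptors, 0 were called: Fcer1g had a log2 fold change of 0.07 (SE 0.07) and Tyrobp -0.04 (SE 0.06). Of 27 kinases and signal transducers tested, 2 were called higher, where 1.08% of all genes tested were, and 0 lower. Syk, the kinase that activating lectins engage, was at 670, 735 and 693 CPM in Con and at 969, 908 and 862 CPM in Van. All Van mice lay above all Con mice, and the log2 fold change was 0.38 (SE 0.06) with an adjusted p of 0.0283 by edgeR with Benjamini-Hochberg adjustment. Pik3r1, a regulatory subunit of phosphoinositide 3-kinase, rose by 0.35 on the log2 scale (SE 0.06) with the same adjusted p. Card9 was at 119, 135 and 133 CPM in Con and 125, 127 and 144 CPM in Van (log2 0.03, SE 0.08).

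Of 5 phosphatases and ubiquitin ligases, 0 were called, and Ptpn6 had a log2 fold change of -0.14 (SE 0.05) with an adjusted p of 0.204 by edgeR with Benjamini-Hochberg adjustment. Of 15 genes induced downstream of these receptors, 12 could be tested and 0 were called, with a median log2 fold change of -0.10. Of 20 other C-type lectin receptors, 17 were tested, with a median log2 fold change of -0.19. Among these 17, 0 were called higher and 2 lower, where 1.08% and 0.917% of all genes tested were. The called genes were Clec9a and Clec2i, a ligand of natural killer receptors, which fell by 0.36 on the log2 scale (adjusted p = 0.0425, edgeR with Benjamini-Hochberg adjustment). These pathway calls were weaker than that of Clec4d: with each mouse left out in turn, Syk was called in 1 of 6 fits, Pik3r1 and Clec2i in 0, and Clec9a in 4, losing its call without Con replicate 3 or Van replicate 2. The same was not computed for Klrk1 or the cell type markers.

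**Figure D5:**
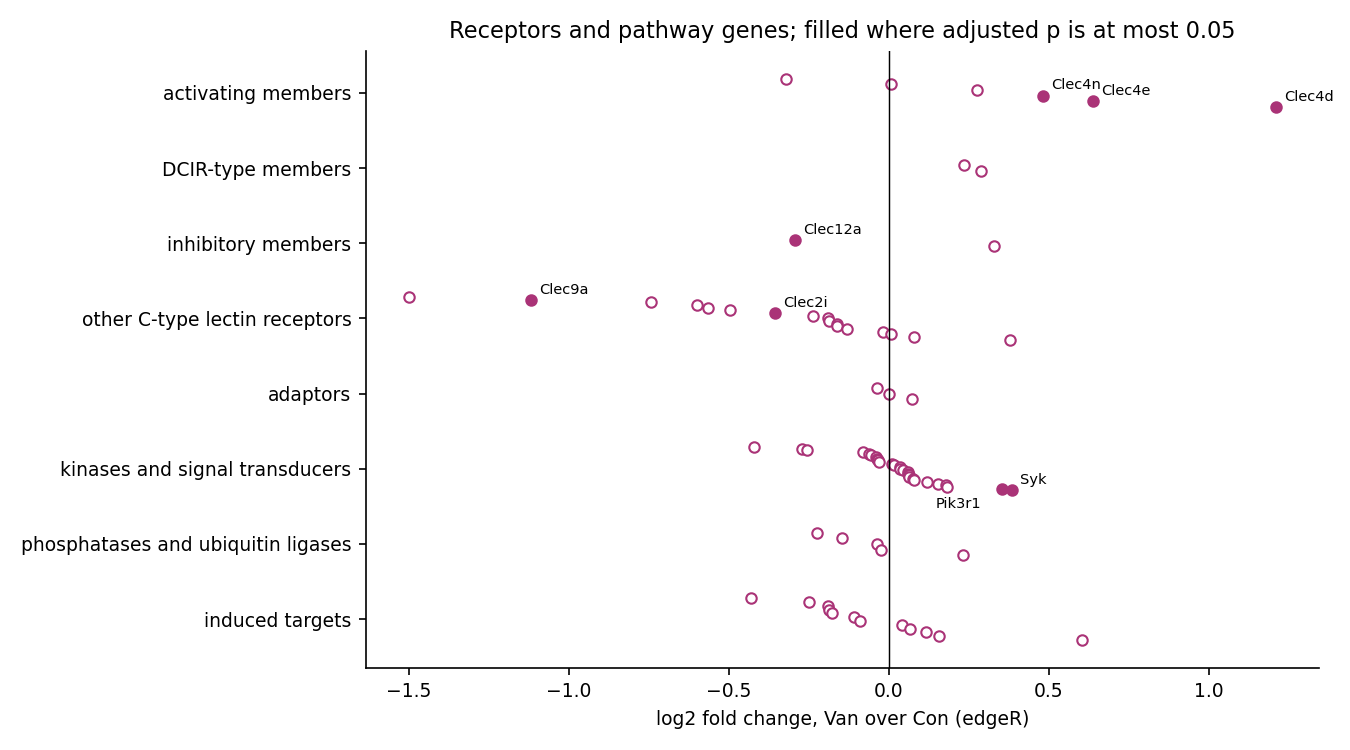
Log2 fold change (Van over Con, edgeR) of the lectin receptors by class and of the pathway lists, 1 point per tested gene, filled and named where the adjusted p is at most 0.05. Syk and Pik3r1 are the filled kinase and transducer genes, and no adaptor, phosphatase or induced target is filled.

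The genes whose centred log2 CPM over the 6 samples lay closest to Clec4d, among those with a mean of at least 5 CPM, were Stip1 (root mean square difference 0.135), Banp (0.147), Mst1r (0.151), Jdp2 (0.166) and Gm15542 (0.192). Stip1 encodes a co-chaperone of heat shock proteins, Mst1r the receptor tyrosine kinase RON and Jdp2 a repressor of the AP-1 family. All 5 were called higher in Van by the same edgeR test, a direction that the choice by likeness to Clec4d fixes.

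Markers of monocyte subsets and of other cells moved alongside. Among 8 classical monocyte markers, Ccr2 fell by 0.83 on the log2 scale and Vcan rose by 1.54, and Ly6c2 had -0.34 without a call. The summed level of the list was 4761 to 6190 CPM in Con and 3556 to 6887 CPM in Van. A large part of that sum was Fn1, at a mean of 2832 CPM in Con and 2384 CPM in Van. Of 9 nonclassical markers 0 were called, Nr4a1 (0.11) and Cx3cr1 (-0.17) included. At an unadjusted p under 0.05, Fcgr4 (0.41), Itgal (0.25) and Treml4 (0.19) were higher and Eno3 (-0.46) was lower, and the list summed to 9399 to 10772 CPM in Con and 10005 to 13125 CPM in Van. General monocyte markers summed to 17681 to 18891 CPM in Con and 15823 to 18210 CPM in Van. Most of this sum was Lyz2, at a mean of 12137 CPM in Con and 11290 CPM in Van. Of these 8 markers, 6 had negative log2 fold changes, and Ccr2 and Fcgr1 were called lower, where 0.917% of all genes tested were. At an unadjusted p under 0.05, 4 were lower and 1 was higher, as were 1313 and 1351 of all 16138 genes tested. Without overlap but not called, Cd14 was higher (log2 0.28) and Itgam (-0.21) and Cx3cr1 were lower. Dendritic cell markers summed to 524 to 561 CPM in Con and 475 to 540 CPM in Van, with Clec9a as the called gene of 9. Beside Clec9a, the dendritic cell markers Xcr1 (log2 -0.85) and Siglech (-0.88) were lower and Flt3 (0.25) was higher in Van without overlap of the groups, and none of these 3 was called.

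Red pulp macrophage markers summed to 3450 to 4040 CPM in Con and 3970 to 5072 CPM in Van. Of these 9 markers 0 were called, 8 had positive log2 fold changes with a median of 0.21, and 5 had an unadjusted p under 0.05 and were higher in Van, as were 1351 of all 16138 genes tested. Vcam1 (log2 0.46), Cd163 (0.38) and C1qb (0.34) did not overlap between the groups. Erythroid markers summed to 81.0 to 168 CPM in Con and 281 to 621 CPM in Van. Of these 7 markers, 5 were called higher by edgeR, where 1.08% of all genes tested were. Neutrophil markers summed to 357 to 405 CPM in Con and 411 to 474 CPM in Van, a sum that Csf3r (log2 0.22) and Mmp8 (0.50) made up for the most part. Of the 11 tested, 0 were called and the other 9 had negative log2 fold changes, so that the median was -0.72 while the sum was higher in Van. The B cell, T cell and natural killer lists had 0 called, with negative values in 6 of 6, 5 of 6 and 3 of 4 tested markers. Of the list for basophils, mast cells and eosinophils, the eosinophil markers Siglecf and Prg2 could be tested and neither was called, and Mcpt8, Cpa3 and Fcer1a had too few counts. The part of these cell types in the lectin values was not tested, and in bulk RNA fewer cells of a type cannot be told apart from less RNA per cell.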

How the data were processed

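Splenic monocyte mRNA of 3 Con mice and 3 Van mice was measured, with groups from the labels; they were matched to the paper by treatment, as its data statement points to a different deposit. The authors aligned reads with HISAT2 to GRCm38 and assembled them with StringTie. The deposited estimated counts (made by the authors through tximport, not normalized) and the deposited FPKM values (scaled by the authors to length and library size) were used. The annotation release and strand use are not given in the sources used here.

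Counts were rounded and tested in R 4.3.3 with edgeR 4.0.16 (TMM, expression filter at a minimum count of 10, quasi-likelihood, Benjamini-Hochberg adjustment over all genes tested). DESeq2 1.42.0 and limma 3.58.1 on log2(FPKM + 1) were alternatives. The scripts were tested on simulated data. Totals were 43383919 to 61834407 counts per sample. Such counts are covered bases divided by a read length, here taken to be 75 although the study's methods state longer reads, so they exceed the number of fragments. Counts rescaled to fragments were an alternative (375 genes called). Coordinates and transcripts are from GENCODE M21, in which 98.0% of the identifiers were found, and promoters from RefSeq. The members and lists were chosen with earlier results of these data known. Named genes are all members, Fcer1g, Tyrobp, Syk, Card9, Ptpn6, called pathway genes, lectin genes between members, 7 markers and the 5 genes most like the member with the smallest p. Vcan, Fcgr1, Klrk1, Csf3r, Mmp8, Vcam1, Cd163, C1qb, Fcgr4, Itgal, Treml4, Eno3, Xcr1, Siglech, Flt3, Siglecf, Prg2, Cd14, Itgam, Lyz2, Fn1, Mcpt8, Cpa3 and Fcer1a were named after their values were seen.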

Additional observations from a re-analysis of the deposited data

How the results depend on the processing

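The call of Clec4d held under every alternative tried, and the log2 fold changes of the other members kept their sign under every alternative except Clec5a, which lay near 0. The number of genes called was 322 with edgeR; it was 965 with DESeq2 and 979 with its filter set for 0.05, an alternative added after seeing the data, and 11, 21 and 97 with limma on log2(FPKM + 1), on log2(FPKM + 0.1) and with a mean FPKM of at least 1. DESeq2 called 5 members higher and 2 lower under both filters (3.73% and 3.6% of the genes it tested under its default filter). Limma without the filter on mean FPKM called 1 higher, Clec4d, under both pseudocounts. With a mean FPKM of at least 1 it called 2 higher, Clec4d and Clec4e, and it called 0 lower under all 3 settings. Leaving out 1 mouse gave 21 to 136 genes, 1 member higher and 0 lower each time. With the replicate number as a block, 110 genes were called, with 2 members higher, Clec4d and Clec4n, and 0 lower. Deviations from the group mean in same-numbered samples had correlations of 0.03, -0.0019 and -0.07, which show no shared deviation by number. Whether the mice were paired, by cage or day for example, cannot be told from these correlations. The activating over inhibitory ratio, Van over Con, was 1.11, and 0.891 with DCIR-type members counted as inhibitory. Counts rescaled to fragments gave 375 genes and called the same 4 members. Clec4b1, Clec5a and Clec4d rested on the fewest counts, between 267 and 1579 a library. The cause of the differences between tests was not tested.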
